A study of Mus musculus with 22 samples.

Results

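The 40 genes described here are interferon-stimulated genes, measured by RNA-seq in the murine leukemia line TCL1-355 TKO, either NFKBIE-ko or NFKBIE-wt. They were taken as a named list, and each gene was the sum of its annotated transcripts, so that the list makes up 40 of the 17023 genes of the table. Among them, 8 genes of the Ifit and Oas families (Ifit1, Ifit2, Ifit3, Oas1a, Oas2, Oas3, Oasl1 and Oasl2) were treated as type I members. Another 8 genes (Gbp2, Gbp3, Gbp4, Gbp7, Irgm1, Igtp, Psmb8 and Psmb9) were treated as interferon-gamma members. The line was established from an Eμ-TCL1 transgenic mouse, a model of chronic lymphocytic leukemia in B cells, and it carries lesions of Cdkn2a and Cdkn2b and an autoreactive B-cell receptor in both genotypes. NFKBIE-ko cells had received Cas9 with a guide against exon 2 of Nfkbie, which encodes the NF-κB inhibitor IκBε, and NFKBIE-wt cells were mock-edited controls. Each genotype was grown on its own in C57BL/6 mice for 21 days, injected into the peritoneum of further C57BL/6 mice and recovered 10 days later from the spleen (4 libraries per genotype) and the peritoneal cavity (PC, 4 libraries per genotype). The cells were not purified, so the RNA of these libraries included that of host cells. Cells taken from spleens were also cultured for 2 weeks without stimulation (in vitro, 3 libraries per genotype). Since each genotype was propagated separately before transplantation, an effect of that passage and an effect of the genotype cannot be told apart.

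Interferons are cytokines that warn cells of infection. Type I interferons bind a receptor shared by nearly all cells and activate the ISGF3 complex of STAT and IRF9 proteins, which binds the interferon-stimulated response element (ISRE), whereas interferon-gamma, made by T cells and NK cells, acts through its own receptor and STAT dimers that bind the gamma-activated site (GAS) and through the factor IRF1. The Ifit and Oas genes encode antiviral proteins that bind foreign RNA or set off the breakdown of RNA and are classical products of the type I response. The Gbp, Irgm1 and Igtp genes encode GTPases that attack vacuoles of intracellular microbes, Psmb8 and Psmb9 encode immunoproteasome subunits that shape peptides for MHC class I, and both sets respond strongly to interferon-gamma. The division is not strict, because many of these genes respond to either cytokine.

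The windows around the start sites of 4 members are shown, namely the pair of type I members and the pair of interferon-gamma members whose levels differed most, in absolute log2 terms, between the spleen and the cultures in NFKBIE-wt libraries. The differences, spleen over in vitro, were 2.08 for Oas1a, -0.97 for Ifit1, -1.50 for Igtp and -1.37 for Gbp2, and none of them passed the test. Each window runs 5′ to 3′ on the gene's strand, from 250 bases before to 50 bases after the start, and comes from RefSeq on GRCm38.p6, whereas the counts were made on GRCm39. It spans chr5:120907476-120907775 on the minus strand for Oas1a, chr19:34640639-34640938 on the plus strand for Ifit1, chr11:58199306-58199605 on the plus strand for Igtp and chr3:142620413-142620712 on the plus strand for Gbp2. Capitals mark the ISRE core GAAANNGAA and the GAS TTCNNNGAA, searched on both strands.
Oas1a: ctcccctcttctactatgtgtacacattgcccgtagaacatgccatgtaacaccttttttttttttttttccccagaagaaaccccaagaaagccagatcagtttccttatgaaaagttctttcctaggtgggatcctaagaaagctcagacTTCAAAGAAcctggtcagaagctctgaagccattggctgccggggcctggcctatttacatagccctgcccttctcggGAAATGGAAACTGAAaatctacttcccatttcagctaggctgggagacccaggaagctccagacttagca
Ifit1: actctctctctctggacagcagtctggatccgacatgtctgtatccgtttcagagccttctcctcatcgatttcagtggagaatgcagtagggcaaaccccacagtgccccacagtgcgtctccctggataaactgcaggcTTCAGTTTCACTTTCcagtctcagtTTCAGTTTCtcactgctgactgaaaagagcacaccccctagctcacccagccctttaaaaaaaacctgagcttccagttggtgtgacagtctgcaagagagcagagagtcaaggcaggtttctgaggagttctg
Igtp: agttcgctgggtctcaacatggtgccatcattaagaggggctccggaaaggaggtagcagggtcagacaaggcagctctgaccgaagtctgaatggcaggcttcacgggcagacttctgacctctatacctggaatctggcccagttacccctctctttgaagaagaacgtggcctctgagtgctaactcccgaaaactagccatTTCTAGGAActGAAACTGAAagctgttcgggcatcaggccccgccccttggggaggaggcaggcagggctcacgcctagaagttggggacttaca
Gbp2: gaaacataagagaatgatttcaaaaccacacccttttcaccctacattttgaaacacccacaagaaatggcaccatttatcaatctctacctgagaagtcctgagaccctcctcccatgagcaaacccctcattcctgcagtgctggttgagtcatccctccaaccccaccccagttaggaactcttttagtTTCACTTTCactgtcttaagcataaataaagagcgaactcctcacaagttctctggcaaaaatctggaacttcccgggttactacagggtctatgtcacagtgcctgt
Oas1a holds a pair of overlapping ISRE cores that begin 20 and 14 bases before the start, and a GAS that begins 98 bases before it. Ifit1 holds 3 ISRE cores, which begin 109, 103 and 84 bases before the start, and the first pair overlaps. Igtp holds an ISRE core 34 bases and a GAS 45 bases before the start, and Gbp2 holds an ISRE core 58 bases before it. Both interferon-gamma members thus carry the same ISRE letters as both type I members in these windows.

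A window was found for 33 of the 40 members, and 19 of them (57.6%) held the ISRE core, against 9.76% of all 27025 genes of the promoter table and 8.56% of its 32851 windows. The GAS letters stood in 11 of 33 (33.3%), against 9.55% of all genes and 8.3% of all windows. By list, the ISRE core stood in 4 of 7 type I windows (57.1%) and in 5 of 7 interferon-gamma windows (71.4%), and the GAS in 2 of 7 (28.6%) and 3 of 7 (42.9%). These are matches of letters, which do not show that a factor was bound. Oas2, Gbp4, Usp18, Zbp1, Parp9, Parp14 and Iigp1 were not matched to a window.

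The libraries held between 24036763 and 26581304 estimated counts, and the members took between 0.132% and 0.376% of them. Levels are given as CPM, the estimated count of a gene per 1000000 counts of its library, with library totals scaled by edgeR's TMM factors unless stated below. Nfkbie RNA was present in all 22 libraries (45.9 to 140 CPM) and overlapped between the genotypes in the spleen and in vitro. Editing can leave the transcript in place, so that this level does not check the labels. A pair of NFKBIE-wt libraries went against their labels in the markers of host cells. The library labelled NFKBIE-wt spleen 4 held 5.67 CPM of 8 summed erythroid markers and 0.115 CPM of 8 granulocyte markers, where the other NFKBIE-wt spleens held 255 to 1983 and 57.5 to 382 CPM. The library labelled NFKBIE-wt in vitro 3 held 1277 and 189 CPM of the same markers, where the other NFKBIE-wt cultures held 6.72 to 19.0 and 0.152 to 3.28 CPM. Both were kept under their labels, and results for the members that rest on them are given with and without them. NFKBIE-wt in vitro 1 stood apart in the members themselves, being the highest of the 3 NFKBIE-wt cultures in 32 of 40 members, where it was the highest in 31.5% of all genes above a mean of 1 CPM.

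Among members, levels can be compared only per length, as TPM, the share of transcripts scaled to 1000000, computed from the counts and the transcript lengths. Averaged over the 22 libraries, Psmb8 (467 TPM), Psmb9 (259 TPM), Samhd1 (149 TPM), Psmb10 (113 TPM) and Irf1 (106 TPM) were the highest. At the other end stood Ifi44 (0.153 TPM), Ifit1 (0.557 TPM), Oas2 (1.66 TPM) and Ifit3 (1.76 TPM). In counts, the interferon-gamma members summed to 431 to 1515 CPM per library and the type I members to 8.81 to 171 CPM. All values below rest on sums that can include reads of close relatives. Ifit1, Ifit3, Oas1a, the Gbp genes, Irgm1, Iigp1 and Trim30a have near copies in the table and are uncertain to that extent, and Parp9 and Dtx3l overlap on opposite strands of chromosome 16.

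**Figure D1:**
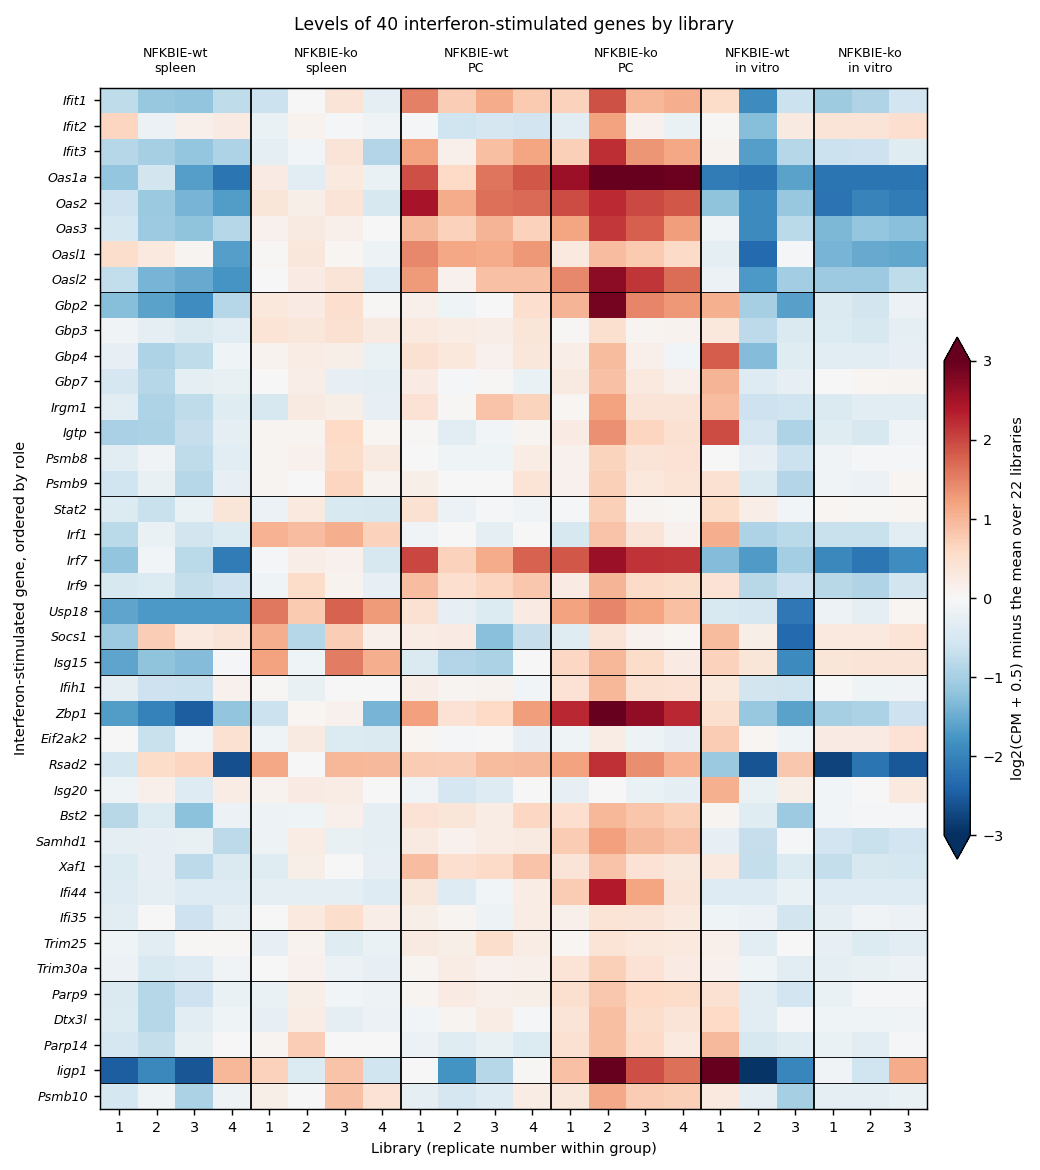
Heat map of the 40 members (lines) in the 22 libraries (columns, by group), coloured by log2(CPM + 0.5) minus the mean of that gene over the 22 libraries. NFKBIE-ko PC 2 is the strongest column and is the highest of the 4 NFKBIE-ko PC libraries in 40 of 40 members. NFKBIE-wt in vitro 1 is the highest of the 22 libraries in 7 members, namely the interferon-gamma members Gbp4, Gbp7 and Igtp and also Irf1, Parp14, Eif2ak2 and Isg20.

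In the spleen, NFKBIE-ko libraries held more RNA of several interferon-stimulated genes than NFKBIE-wt libraries, and no member was lower. Of the 39 members that passed the low-count filter, 8 rose (adjusted p below 0.05 in edgeR's quasi-likelihood test), where 2.32% of all 12219 genes tested were higher and 3.16% were lower. Usp18, Isg15, Gbp2, Oasl2, Irf1, Oas3, Igtp and Gbp3 made up the 8. The median log2 fold change was 0.61 over the 39 members and -0.01 over all genes tested. Ifi44 was not tested, with 0 to 0.0407 CPM in the 8 spleen libraries. Here as elsewhere, more cells of a type and more RNA per cell cannot be told apart, and p-values measure the spread between these libraries.

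Usp18, which encodes the protease that removes ISG15 from proteins and also dampens signaling of the type I receptor, had the largest fold change. Its level was 1.57, 1.39, 1.39 and 1.38 CPM in the NFKBIE-wt spleens and 17.9, 10.1, 20.7 and 14.5 CPM in the NFKBIE-ko spleens. The groups lay far apart, with a log2 fold change of 3.44 ± 0.25 (SE, adjusted p = 0.000576). Isg15, the ubiquitin-like modifier that Usp18 removes, was at 3.26, 4.36, 4.09 and 10.4 CPM in NFKBIE-wt and at 25.5, 9.74, 32.2 and 23.5 CPM in NFKBIE-ko spleens. The groups of Isg15 overlapped, because the library labelled NFKBIE-wt spleen 4 exceeded NFKBIE-ko spleen 2, and the log2 fold change was 2.01 ± 0.45 (adjusted p = 0.0371).

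Irf1, the factor through which much of the interferon-gamma response runs and itself a target of NF-κB, was at 58.6, 88.5, 69.9 and 76.8 CPM in NFKBIE-wt and at 212, 194, 220 and 166 CPM in NFKBIE-ko spleens. All 4 NFKBIE-ko libraries stood above all 4 NFKBIE-wt libraries, and the log2 fold change was 1.41 ± 0.15 (adjusted p = 0.00213). The other factors of the response did not pass the test, with log2 fold changes of 0.86 ± 0.38 for Irf7, 0.64 ± 0.18 for Irf9 and -0.02 ± 0.26 for Stat2 (adjusted p of 0.221, 0.0725 and 0.969). Socs1, an inhibitor of the receptor-bound kinases, was likewise not separated (0.21 ± 0.48, adjusted p = 0.845).

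Among the interferon-gamma members, 3 of 8 rose and all 8 had a positive log2 fold change, with a median of 0.62. Gbp2 was at 17.0, 13.4, 11.1 and 22.7 CPM in NFKBIE-wt and at 52.2, 49.5, 59.3 and 42.7 CPM in NFKBIE-ko spleens. These groups did not overlap (1.64 ± 0.22, adjusted p = 0.00585). Igtp, an immunity-related GTPase, rose by 0.90 ± 0.20 (adjusted p = 0.0379), and Gbp3 rose by 0.63 ± 0.10 (adjusted p = 0.0119) from 54.7 to 68.3 CPM in NFKBIE-wt to 88.9 to 101 CPM in NFKBIE-ko spleens. Psmb8 stood at 212, 249, 158 and 213 CPM in NFKBIE-wt and at 281, 291, 395 and 321 CPM in NFKBIE-ko spleens. Although these libraries did not overlap either, Psmb8 missed the threshold (0.61 ± 0.16, adjusted p = 0.0632).

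Among the type I members, 2 of 8 rose, and the median log2 fold change was 1.27. Oas3, a synthase of 2-5A, the messenger that activates RNase L, went from 2.62 to 4.47 CPM in NFKBIE-wt to 6.62 to 8.15 CPM in NFKBIE-ko spleens (1.12 ± 0.22, adjusted p = 0.0257). Oasl2 went from 1.34 to 3.30 CPM to 4.31 to 7.71 CPM (1.57 ± 0.33, adjusted p = 0.0301). Oas1a was at 0.523, 1.06, 0.231 and 0 CPM in NFKBIE-wt and at 2.23, 1.31, 2.33 and 1.50 CPM in NFKBIE-ko spleens, which did not overlap, yet its larger fold change did not pass (2.01 ± 0.82, adjusted p = 0.186). Oas2 was close to the threshold (1.90 ± 0.49, adjusted p = 0.0596), while Oasl1 (0.05 ± 0.39) and Ifit2 (-0.34 ± 0.20) showed little difference beside their errors. The type I members thus had the larger median fold change, and also the larger standard errors (0.20 to 0.82 against 0.10 to 0.22). The difference between the 2 medians was not tested.

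Some of these calls turned on single libraries. Usp18, Gbp2 and Irf1 kept their calls whichever of the 8 spleen libraries was left out. Igtp and Isg15 lost theirs without any of NFKBIE-wt 1, 2 or 3 or NFKBIE-ko 1, 3 or 4, Oas3 and Oasl2 without any of NFKBIE-wt 2 or 3 or NFKBIE-ko 1, 3 or 4, and Gbp3 without NFKBIE-ko 1 or 3. Without the library labelled NFKBIE-wt spleen 4, 14 members rose and 0 fell, where 5.47% of all genes were higher and 6.69% were lower. The 6 additions were Oas2 (1.65 ± 0.44), Psmb9 (0.75 ± 0.20), Zbp1 (1.85 ± 0.42), Parp9 (0.56 ± 0.15), Iigp1 (3.71 ± 0.60) and Psmb10 (0.91 ± 0.25). The change was largest for Iigp1, a GTPase of the same family as Igtp, at 0.241, 0.570 and 0.193 CPM in NFKBIE-wt spleens 1 to 3 but 7.67 CPM in the library labelled 4, and at 2.19 to 6.91 CPM in NFKBIE-ko spleens. Without that library, the medians were 1.35 for the type I and 0.67 for the interferon-gamma members.

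**Figure D2:**
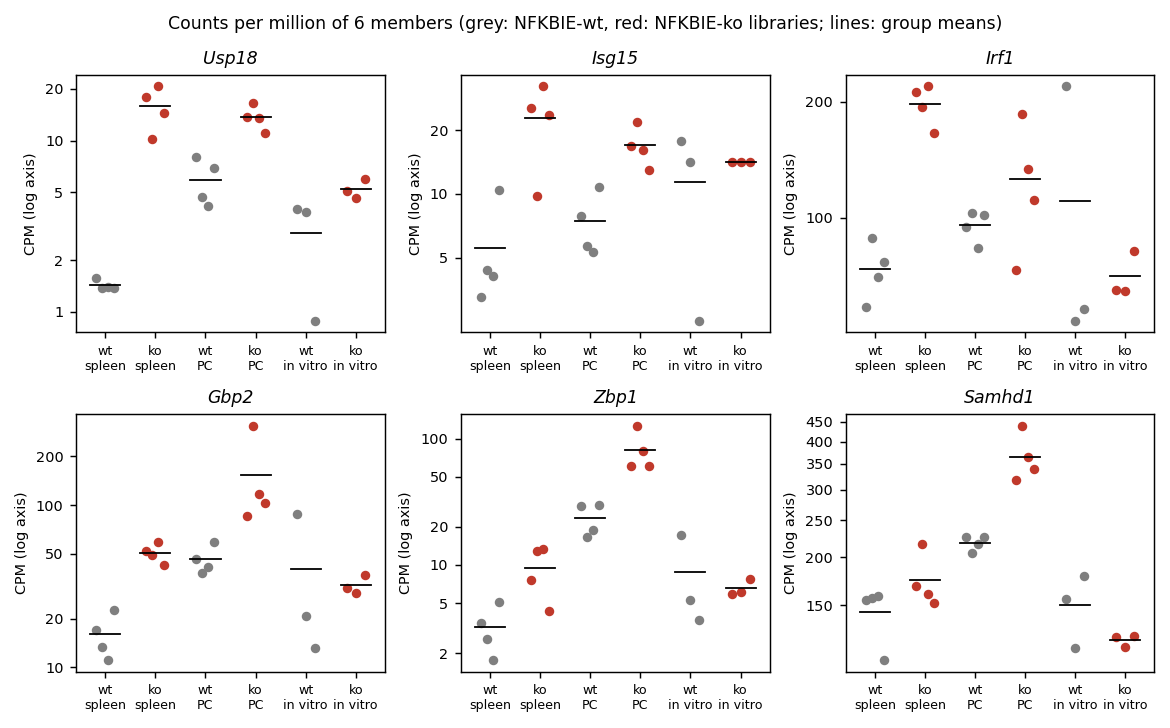
Levels of Usp18, Isg15, Irf1, Gbp2, Zbp1 and Samhd1 in CPM (log axis) for each library of the 6 groups, with lines at the group means. Usp18, Irf1 and Gbp2 are separated by genotype in the spleen, Usp18, Isg15, Gbp2, Zbp1 and Samhd1 in the PC, and in vitro NFKBIE-wt 1 lies above the other NFKBIE-wt cultures in Irf1, Gbp2 and Zbp1.

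In the PC, 19 of 39 members tested rose in NFKBIE-ko libraries and 1 fell, but the PC comparison called many genes of every kind: 22.5% of the 12642 genes tested were higher and 20.9% were lower. The median log2 fold change was 0.42 over the members tested and -0.01 over all genes. Ifi44, not tested, was at 0 to 0.326 CPM in NFKBIE-wt and at 0.360 to 2.93 CPM in NFKBIE-ko PC libraries. The smallest p-values belonged to Samhd1, Parp14 and Parp9 in the PC, and to Usp18, Irf1 and Gbp2 in the spleen.

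Samhd1, which limits viruses by depleting nucleotides, was at 226, 205, 216 and 225 CPM in NFKBIE-wt and at 317, 440, 365 and 338 CPM in NFKBIE-ko PC libraries. The groups were apart, with a log2 fold change of 0.74 ± 0.10 (adjusted p = 0.000185). Zbp1, a sensor of Z-form nucleic acid that can trigger necroptosis, was at 29.4, 16.6, 18.8 and 29.9 CPM in NFKBIE-wt and at 60.1, 127, 80.2 and 60.4 CPM in NFKBIE-ko PC libraries. All NFKBIE-ko values of Zbp1 exceeded all NFKBIE-wt values (1.78 ± 0.31, adjusted p = 0.00236). Ifih1, the RNA sensor MDA5, rose by 0.53 ± 0.14 (adjusted p = 0.00976), Rsad2, the antiviral enzyme viperin, by 0.68 ± 0.23 (adjusted p = 0.0381), and Bst2, or tetherin, by 0.36 ± 0.11 (adjusted p = 0.0259).

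Parp9 and Dtx3l, which form a complex that modifies ubiquitin, and their relative Parp14 all rose. Parp14 was at 40.3, 35.3, 38.7 and 33.9 CPM in NFKBIE-wt and at 62.3, 86.1, 67.9 and 55.6 CPM in NFKBIE-ko PC libraries, a log2 fold change of 0.87 ± 0.13 (adjusted p = 0.000354). Parp9 was at 58.9, 66.2, 61.7 and 63.0 CPM against 78.5, 98.4, 84.2 and 81.3 CPM, a log2 fold change of 0.45 ± 0.08 (adjusted p = 0.000901). Dtx3l was at 57.6, 64.5, 70.9 and 59.8 CPM against 79.9, 115, 88.6 and 79.7 CPM, a log2 fold change of 0.52 ± 0.12 (adjusted p = 0.00492). In each of these genes the 4 NFKBIE-ko libraries lay above the 4 NFKBIE-wt libraries.

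Of the members that rose in the spleen, Usp18 (1.21 ± 0.22, adjusted p = 0.00127), Isg15 (1.19 ± 0.24, adjusted p = 0.00298), Gbp2, Oas3, Oasl2 and Igtp also rose in the PC. Usp18 was at 7.98, 4.68, 4.15 and 6.87 CPM in NFKBIE-wt and at 13.7, 16.5, 13.6 and 11.1 CPM in NFKBIE-ko PC libraries, and Isg15 was at 7.86, 5.64, 5.33 and 10.8 CPM against 16.8, 21.8, 16.1 and 13.0 CPM. Irf1 (0.39 ± 0.25, adjusted p = 0.238) and Gbp3 (-0.08 ± 0.10, adjusted p = 0.557) did not pass in the PC. Irf1 overlapped there, with 94.7, 103, 83.7 and 101 CPM in NFKBIE-wt and 72.9, 186, 134 and 111 CPM in NFKBIE-ko.

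The type I members of the PC did not move one way. Oas1a was at 8.31, 3.0, 6.52 and 7.91 CPM in NFKBIE-wt and at 13.1, 25.5, 18.2 and 17.0 CPM in NFKBIE-ko PC libraries and rose by 1.51 ± 0.31 (adjusted p = 0.00412). Oas3 (0.80 ± 0.21, adjusted p = 0.0116) and Oasl2 (1.24 ± 0.33, adjusted p = 0.0152) also rose. Oasl1, which unlike its relatives lacks synthase activity and restrains the translation of Irf7, was the 1 member that fell, from 37.9, 31.2, 29.7 and 34.0 CPM to 16.7, 26.4, 23.9 and 20.3 CPM (-0.61 ± 0.14, adjusted p = 0.00482). Ifit1 (0.18 ± 0.31), Ifit3 (0.60 ± 0.38), Ifit2 (0.78 ± 0.35) and Oas2 (0.20 ± 0.27) did not pass. The median of the 8 was 0.69.

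Of the 8 interferon-gamma members, 3 rose, with a median of 0.32. Gbp2 was at 46.4, 38.2, 41.6 and 59.5 CPM in NFKBIE-wt and at 85.2, 310, 117 and 103 CPM in NFKBIE-ko PC libraries (1.72 ± 0.44, adjusted p = 0.0162). Psmb8 was at 270, 244, 244 and 311 CPM against 292, 428, 353 and 363 CPM, with an overlap of the lowest NFKBIE-ko and the highest NFKBIE-wt library (0.42 ± 0.12, adjusted p = 0.0153). Igtp rose by 0.80 ± 0.24 (adjusted p = 0.0247). Psmb10, the further immunoproteasome subunit, was at 49.9, 42.5, 46.3 and 70.7 CPM against 76.3, 134, 103 and 99.0 CPM and rose by 0.97 ± 0.20 (adjusted p = 0.00401). Iigp1 rose by 3.44 ± 0.93 (adjusted p = 0.0214), and Trim30a, a ubiquitin ligase, by 0.31 ± 0.09 (adjusted p = 0.0191).

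NFKBIE-ko PC 2 carried much of the size of these differences, since it was the highest of its group in 40 of 40 members and in 26.8% of all genes. Without it, 18 members rose and 1 fell (19.5% and 17.5% of all genes), Bst2 lost its call, and the medians became 0.24 for the type I and 0.17 for the interferon-gamma members. Gbp2 was then at 1.12 ± 0.16, Iigp1 at 2.24 ± 0.52 and Zbp1 at 1.49 ± 0.23. Bst2 also lost its call without NFKBIE-wt 2 or 3 or NFKBIE-ko 3, Rsad2 without any of the 4 NFKBIE-wt libraries or NFKBIE-ko 3, Igtp and Iigp1 without NFKBIE-wt 2 or 3, Gbp2 without NFKBIE-wt 3 and Trim30a without NFKBIE-wt 1. The other 14 of the 20 calls held with each library left out.

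In vitro, 0 of 37 members tested passed in either direction with edgeR, with 0 higher and 2 lower at an unadjusted p below 0.05, and DESeq2 also called 0. With edgeR, the share of all 11722 genes was 0.0427% higher and 0% lower, and with DESeq2 0.554% of all genes were higher and 0.795% lower. Few genes of any kind were thus called in the cultures. The smallest adjusted p of a member was 0.516. Oas1a, Oas2 and Ifi44 were not tested. Oas1a was at 0 CPM in the 3 NFKBIE-ko cultures and at 0.0391, 0 and 0.259 CPM in the NFKBIE-wt cultures, and a count of 0 allows up to 3 counts, or 0.118 CPM. Oas2 was at 0, 0.0759 and 0.0407 CPM in NFKBIE-ko and at 0.508, 0.114 and 0.555 CPM in NFKBIE-wt cultures.

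The NFKBIE-ko cultures resembled each other closely, whereas the NFKBIE-wt cultures did not. Usp18 was at 3.98, 3.84 and 0.889 CPM in NFKBIE-wt and at 5.07, 4.63 and 5.95 CPM in NFKBIE-ko cultures (0.84 ± 0.54, adjusted p = 0.571). Isg15 was at 17.7, 14.1 and 2.52 CPM against 14.1, 14.2 and 14.1 CPM, with the library labelled NFKBIE-wt in vitro 3 far below the rest. Irf1 was at 220, 54.0 and 58.0 CPM against 64.7, 64.5 and 81.9 CPM, and Gbp2 at 87.8, 20.8 and 13.2 CPM against 31.0, 28.6 and 36.9 CPM, with NFKBIE-wt 1 above the rest in both. Rsad2, at 2.38, 0.532 and 10.4 CPM in NFKBIE-wt and 0.407, 0.873 and 0.570 CPM in NFKBIE-ko cultures, had the lowest fold change (-2.86 ± 1.06, adjusted p = 0.516).

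Which NFKBIE-wt culture was included set the sign of the medians. With all 3, the median log2 fold change was -0.36 over the 6 type I members tested and -0.29 over the 8 interferon-gamma members. When the culture labelled NFKBIE-wt in vitro 3 was left out, the medians were -0.42 and -0.58, with 0.0591% of all genes higher and 0.0169% lower, and without NFKBIE-wt in vitro 1 they were 0.47 and 0.38. No member passed in either case. Gbp2, for example, went from -0.34 ± 0.68 to -0.76 ± 0.57 and to 0.91 ± 0.24, and Igtp from -1.08 ± 0.76 to -1.51 ± 0.67 and to 0.39 ± 0.19. In the spleen, the standard errors were 0.22 for Gbp2 and 0.20 for Igtp.

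**Figure D3:**
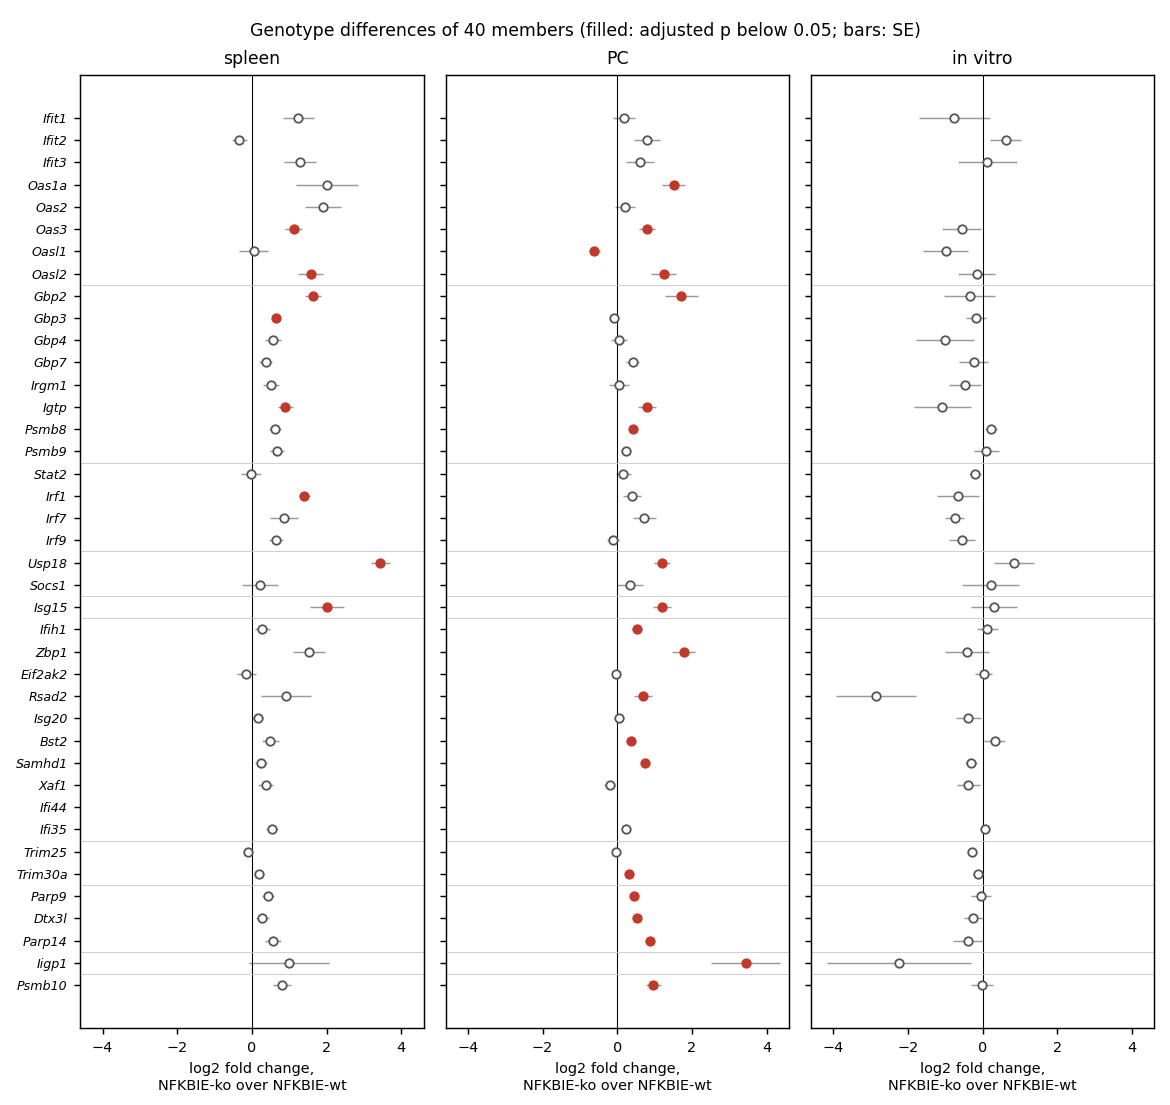
Log2 fold change of NFKBIE-ko over NFKBIE-wt (bars, SE) of the members in the spleen, the PC and in vitro, with filled points for an adjusted p below 0.05 and no point where a member was not tested. There are 8 filled points in the spleen, 20 in the PC, of which Oasl1 alone lies below 0, and 0 in vitro.

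Whether the genotype effect differed between compartments was tested in a fit of all 22 libraries. The effect of NFKBIE-ko on Usp18 was larger in the spleen than in the PC by 2.22 ± 0.47 on the log2 scale (adjusted p = 0.0109), the 1 member of 40 that passed, where 4.9% of 13538 genes passed in either direction. Between the spleen and the cultures, 2 members passed (0.443% of all genes), Usp18 by 2.61 ± 0.51 (adjusted p = 0.041) and Oas2 by 5.11 ± 0.91 (adjusted p = 0.0265). Between the PC and the cultures, 2 members passed (4.9% of all genes), Samhd1 by 1.06 ± 0.22 (adjusted p = 0.0178) and Oas2 by 3.42 ± 0.90 (adjusted p = 0.0369). Both values of Oas2 rest on NFKBIE-ko cultures at 0 to 2 counts, and their size depends on the prior count of the fit. The difference in Irf1 between the spleen and the PC did not pass (1.01 ± 0.48, adjusted p = 0.244).

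Leaving out the pair of NFKBIE-wt libraries that went against their labels, 2 members passed between the spleen and the PC (Usp18 at 2.23 ± 0.34 and Samhd1 at -0.59 ± 0.17), 5 between the spleen and the cultures and 7 between the PC and the cultures. Among all 13760 genes tested, 3.85% passed above 0 and 4.38% below 0 for the spleen minus the PC, 0.56% and 0.378% for the spleen minus the cultures, and 4.22% and 1.88% for the PC minus the cultures. The 5 were Usp18 (3.03 ± 0.39), Isg15 (2.71 ± 0.47), Irf1 (2.41 ± 0.52), Igtp (2.61 ± 0.58) and Oas2 (4.52 ± 1.00). The 7 were Gbp2, Igtp, Zbp1, Samhd1, Parp14, Iigp1 and Psmb10, at 0.90 to 6.25, and Oas2 no longer passed (3.06 ± 0.97, adjusted p = 0.0678). The difference in Usp18 between the spleen and the PC held with each of the 16 libraries left out in turn, and none of the 4 calls against the cultures did so. Samhd1 missed the threshold without NFKBIE-ko in vitro 1 or 2. Usp18 missed it without NFKBIE-wt spleen 3, NFKBIE-ko spleen 1, 3 or 4 or any NFKBIE-ko culture, and Oas2, for the spleen, without NFKBIE-ko spleen 1 or 3, NFKBIE-wt in vitro 3 or any NFKBIE-ko culture. For the PC, Oas2 held only without NFKBIE-wt PC 1 or NFKBIE-wt in vitro 2. Without NFKBIE-wt in vitro 2 alone, 11 members passed for the spleen minus the cultures, all above 0 (3.83% of all genes above 0 and 1.22% below 0), and 11 members, not all of them the same, for the PC minus the cultures, again all above 0 (7.08% and 1.29% of all genes).

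Within each genotype, the members were also compared between the sites of the cells. Contrasts between sites share libraries with each other and with the genotype comparisons. Against the cultures, NFKBIE-ko PC libraries were higher in 28 of 40 members and lower in 0 (24.1% and 23.9% of all genes), with 7 of 8 type I members at a median of 2.86 and 4 of 8 interferon-gamma members at a median of 0.61. The median of all genes was -0.01. NFKBIE-ko spleens were higher than cultures in 13 members and lower in 0 (16.9% and 13.4% of all genes), with 5 of 8 type I members at a median of 1.34 and 1 of 8 interferon-gamma members, Gbp3, at a median of 0.34. The PC was higher than the spleen in 18 members and lower in 0 (25.1% and 26.1% of all genes), with 6 of 8 type I members at a median of 1.76 and 1 of 8 interferon-gamma members, Gbp2, at a median of 0.39.

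Among the type I members, Oas1a was at 0 counts in every NFKBIE-ko culture and was at least 15.7-fold higher in NFKBIE-ko spleens (1.31 to 2.33 CPM) and at least 157-fold higher in NFKBIE-ko PC libraries (13.1 to 25.5 CPM), taking 3 counts per culture as the floor. Oas2 was at least 17.7-fold and 75.7-fold higher by the same reckoning. Oas3 was at 2.33, 2.73 and 2.52 CPM in NFKBIE-ko cultures, at 7.38, 8.15, 7.43 and 6.62 CPM in spleens and at 15.9, 31.0, 24.3 and 16.6 CPM in the PC, a complete order of the sites. Not every type I member was ordered in this way. Ifit1 and Ifit3 overlapped between NFKBIE-ko spleens (0.962 to 2.49 and 0.616 to 2.17 CPM) and cultures (0.592 to 1.02 and 0.814 to 1.10 CPM), and Oasl1 between spleens (12.2 to 17.2 CPM) and the PC (16.7 to 26.4 CPM). Ifit2 was at 11.6, 11.7 and 12.6 CPM in NFKBIE-ko cultures, at 7.62 to 9.54 CPM in spleens and at 6.94 to 20.8 CPM in the PC. It passed in none of the 6 site comparisons.

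Among the factors, Irf7, which amplifies type I interferon production, followed the type I members. It was at 3.74, 3.07 and 3.91 CPM in NFKBIE-ko cultures, at 14.8, 17.9, 17.1 and 11.0 CPM in spleens and at 57.7, 97.1, 72.1 and 71.0 CPM in the PC (PC over in vitro 4.35 ± 0.43, adjusted p = 3.3e-07). Irf1 had another order, with 64.7, 64.5 and 81.9 CPM in NFKBIE-ko cultures, 212, 194, 220 and 166 CPM in spleens and 72.9, 186, 134 and 111 CPM in the PC. Irf1 was higher in spleens than in cultures (1.46 ± 0.38, adjusted p = 0.00851), while PC over spleen was -0.65 ± 0.34 (adjusted p = 0.121). Usp18 was higher than in cultures in both the spleen (1.57 ± 0.36) and the PC (1.37 ± 0.36), and spleen and PC did not differ beyond their error (-0.20 ± 0.32). Zbp1 was separated between the PC and the spleen (3.11 ± 0.46, adjusted p = 1.96e-05) and overlapped between spleens (4.31 to 13.5 CPM) and cultures (5.92 to 7.78 CPM).

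In NFKBIE-wt libraries, the PC was higher than the spleen in 23 of 40 members and lower in 0 (15.8% and 19.7% of all genes). The 7 type I members that passed had log2 differences of 1.26 to 3.81, with a median of 2.49 over the 8, and 4 of 8 interferon-gamma members passed, with a median of 0.61. Against the cultures, PC libraries were higher in 14 members and lower in 1, Isg20 (14.4% and 19.7% of all genes), with 7 of 8 type I members at a median of 1.83 and 0 of 8 interferon-gamma members at a median of 0.19. Between the spleen and the cultures of NFKBIE-wt cells, 0 members were higher and 0 lower with edgeR (0% and 0% of all genes), with 1 higher and 11 lower at an unadjusted p below 0.05, and the medians were 0.13 for the type I and -0.73 for the interferon-gamma members.

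The NFKBIE-wt comparison of spleen and cultures was the one that the pair of libraries with odd markers changed most. Without both, 3 members were higher in the spleen (Oas1a, Oasl1 and Rsad2) and 14 were lower, where 14.8% of all genes were higher and 11.5% lower. Those that fell included 4 of 8 interferon-gamma members, among them Gbp2 (-1.97 ± 0.50) and Igtp (-2.08 ± 0.44), and also Usp18 (-1.43 ± 0.30), Isg15 (-2.02 ± 0.36), Zbp1 (-2.11 ± 0.51) and Iigp1 (-6.57 ± 1.60). The median was -1.01 for the interferon-gamma members and 0.29 for the type I members, so that in these libraries the 2 medians lay on opposite sides of 0. The remaining NFKBIE-wt cultures differed, with a mean interferon-gamma deviation (described below) of 0.94 in NFKBIE-wt in vitro 1 and -0.66 in NFKBIE-wt in vitro 2. NFKBIE-wt spleens 1 to 3, at -0.54, -0.73 and -0.80, enclosed the latter, so the fall of the list as a whole rests on NFKBIE-wt in vitro 1. Gbp2, Igtp, Usp18, Isg15 and Zbp1 were higher in both cultures than in those spleens. Iigp1 was at 64.4 and 0.038 CPM in the cultures, against 0.193 to 0.570 CPM. For PC against cultures, 12 members were then higher and 5 lower (22.9% and 20% of all genes), the latter being Igtp, Isg15, Isg20, Parp14 and Iigp1, and for PC against spleen 25 were higher and 0 lower (18.7% and 20.1% of all genes).

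**Figure D4:**
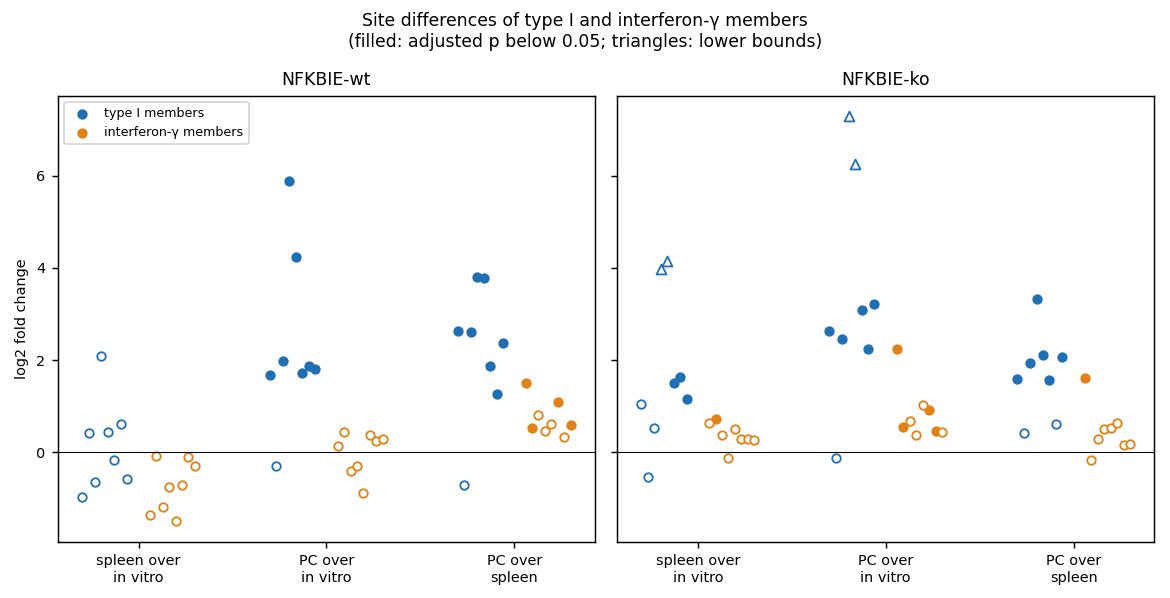
Log2 differences between sites (vertical axis) of the 8 type I and the 8 interferon-gamma members in each genotype, with filled points for an adjusted p below 0.05 in edgeR's test. Triangles are lower bounds of Oas1a and Oas2 against NFKBIE-ko cultures. Most type I members lie above 0 in the comparisons with the PC, whereas the interferon-gamma members stay nearer to 0 and lie below it in NFKBIE-wt spleens against cultures.

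The contrast of the lists was also taken within each library, as the mean deviation of the type I members (log2(CPM + 0.5) minus the mean of the gene over 22 libraries) minus that of the interferon-gamma members. It was 1.12, 0.52, 0.84 and 0.68 in NFKBIE-wt and 0.80, 0.96, 1.05 and 0.89 in NFKBIE-ko PC libraries, and all 8 PC libraries were above 0. NFKBIE-ko spleens were near 0, at -0.11, -0.10, -0.11 and -0.32, as were NFKBIE-wt spleens 1 to 3 at 0.11, -0.04 and -0.18. NFKBIE-ko cultures were at -0.93, -0.84 and -0.91, and NFKBIE-wt cultures 1 and 2 at -1.34 and -1.21. The pair of libraries with odd markers also stood apart here, with -0.86 for the library labelled NFKBIE-wt spleen 4, on the side of the cultures, and -0.02 for the library labelled NFKBIE-wt in vitro 3, on the side of the spleens. Apart from that pair, the contrast ordered the sites alike in both genotypes. Within a site, the genotypes overlapped in the PC, and in the spleen they overlapped with and without the library labelled 4. In vitro they overlapped with all 3 NFKBIE-wt cultures, and with the culture labelled 3 left out both remaining NFKBIE-wt cultures lay below all 3 NFKBIE-ko cultures.

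Taken separately, both lists were higher in NFKBIE-ko spleens. The type I deviation was -0.44, -0.77, -0.98 and -1.20 in NFKBIE-wt and -0.04, 0.09, 0.25 and -0.32 in NFKBIE-ko spleens, and the interferon-gamma deviation was -0.54, -0.73, -0.80 and -0.34 against 0.08, 0.19, 0.36 and 0.00. NFKBIE-ko libraries were higher in both lists without overlap. In the PC, the type I deviation was 1.35, 0.51, 0.97 and 0.98 against 1.06, 2.10, 1.52 and 1.29, and the interferon-gamma deviation 0.22, -0.01, 0.13 and 0.30 against 0.26, 1.14, 0.47 and 0.40, with overlap in both. NFKBIE-wt in vitro 1 was the highest of the cultures in both the interferon-gamma deviation (0.94) and the type I deviation (-0.40). The latter still lay below that of every PC library. The type I deviation was -0.73 in the library labelled NFKBIE-wt in vitro 3 and -1.20, -1.14 and -1.04 in the NFKBIE-ko cultures. The values of NFKBIE-wt in vitro 2 were -0.66 and -1.86.

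**Figure D5:**
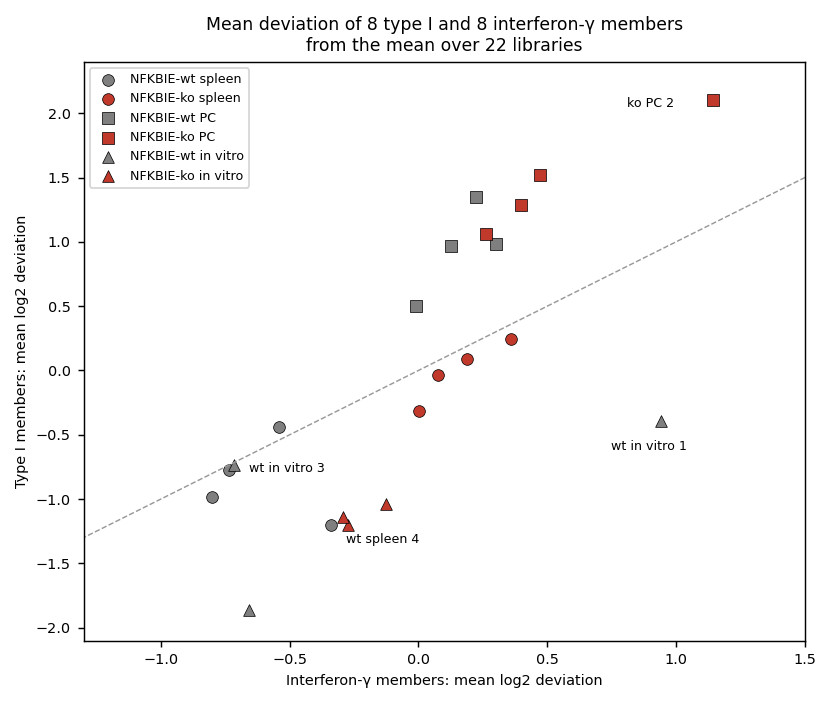
Mean log2 deviation of the 8 type I members (vertical axis) against that of the 8 interferon-gamma members (horizontal axis), a point for each of the 22 libraries, with a dashed line where they are equal. The 8 PC libraries lie above the line, the cultures other than NFKBIE-wt in vitro 3 lie below it, and the spleens other than NFKBIE-wt spleen 4 lie close to it.

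Of a further list of 32 genes of the interferon pathway and of nucleic acid sensing, 26 were tested in the spleen and 3 rose with 0 lower (2.32% and 3.16% of all genes), 25 were tested in the PC and 17 rose with 1 lower (22.5% and 20.9% of all genes), and 23 were tested in vitro with 0 in either direction (0.0427% and 0% of all genes). Sting1, the adaptor that passes on the cGAS signal, was at 21.4, 25.2, 24.4 and 35.7 CPM in NFKBIE-wt and at 72.1, 57.5, 82.5 and 71.9 CPM in NFKBIE-ko spleens (1.39 ± 0.19, adjusted p = 0.00537). It was also higher in NFKBIE-ko PC libraries, at 36.0, 37.0, 35.4 and 34.5 CPM against 15.2, 11.5, 9.83 and 14.0 CPM (1.49 ± 0.13, adjusted p = 1.18e-05). In vitro, Sting1 was at 82.0, 74.8 and 89.1 CPM in NFKBIE-ko and at 39.2, 64.4 and 21.7 CPM in NFKBIE-wt cultures. These did not overlap, but the difference did not pass. Both receptors rose in the PC by small amounts, with log2 fold changes of 0.38 for Ifnar1, 0.36 for Ifnar2, 0.51 for Ifngr1 and 0.60 for Ifngr2. Irf5 rose in the spleen (0.65 ± 0.14, adjusted p = 0.035) and Irf8 in the PC (0.80 ± 0.10, adjusted p = 0.000137).

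Of the 7 ligand genes listed, Ifng was the 1 with transcripts in the table, and the type I and type III ligands were not analysed here. Ifng, the gene of interferon-gamma itself, was at 0.322, 0.774, 0.501 and 0.0383 CPM in NFKBIE-wt and at 2.31, 1.87, 4.86 and 1.77 CPM in NFKBIE-ko spleens. The NFKBIE-ko values were all higher, but the difference missed the threshold (2.69 ± 0.69, adjusted p = 0.0559) and passed without the library labelled NFKBIE-wt spleen 4 (2.32 ± 0.50, adjusted p = 0.0185). In the PC, Ifng was at 0.0395 to 0.304 CPM in NFKBIE-wt and at 0.200 to 0.689 CPM in NFKBIE-ko libraries, and it was too low in the PC and in vitro for the genotype comparisons there. The cultures were at 0.781, 0 and 0.704 CPM in NFKBIE-wt, of which the first is NFKBIE-wt in vitro 1 and the last the library labelled NFKBIE-wt in vitro 3, and at 0.037, 0 and 0.0814 CPM in NFKBIE-ko. In the fit of all 22 libraries Ifng was tested, and the effect of NFKBIE-ko was larger in the PC than in vitro (adjusted p = 0.0453), while the difference missed the threshold between the spleen and the cultures (adjusted p = 0.0612) and between the spleen and the PC (adjusted p = 0.815). In NFKBIE-ko, Ifng was higher in the spleen (adjusted p = 0.00209) and in the PC (adjusted p = 0.0246) than in the cultures and lower in the PC than in the spleen (-2.55 ± 0.82, adjusted p = 0.014). No site difference passed in NFKBIE-wt (adjusted p = 0.0996 to 0.937). Differences against the NFKBIE-ko cultures rest on 0 to 2 counts and are given without a size.

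Host cells differed between the groups as well, and their part in the results above was not tested. In the spleen, where 2.32% of all genes rose and 3.16% fell in NFKBIE-ko, 12 summed markers of CD8+ cytotoxic and NK cells were at 3.14 to 20.4 CPM in NFKBIE-wt and at 68.8 to 157 CPM in NFKBIE-ko libraries, and 5 of 11 tested rose. The 12 T-cell markers were at 238 to 411 and 566 to 680 CPM, and 1 of 12 rose. NFKBIE-ko cultures, with Cd28, Trbc1 and Trbc2 at 0, also held 342.5 to 399 CPM of this list, so the sum is not specific to host T cells. Summed markers of macrophages and monocytes were at 28.7 to 95.1 and 102 to 384 CPM, with 0 of 11 called. No granulocyte, erythroid or plasmacytoid dendritic cell marker was called in the spleen.

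In the PC, 22.5% of all genes rose and 20.9% fell in NFKBIE-ko. Macrophage markers were at 619 to 1863 CPM in NFKBIE-wt and at 3970 to 5803 CPM in NFKBIE-ko libraries, and 11 of 12 rose. Their sum was highest in NFKBIE-ko PC 2, the library with the highest level of every member in its group. Mrc1 (73.8 CPM) and Cd14 (43.2 CPM) were lowest of the group in that library, and the other macrophage markers were highest in it. Of the T-cell markers and of the CD8+ and NK markers, 9 of 12 rose and 1 fell in each list. The granulocyte markers went the other way, from 151 to 445 CPM in NFKBIE-wt to 8.88 to 30.4 CPM in NFKBIE-ko libraries, and 5 of 6 tested fell (median -3.69). Macrophage markers were higher in the PC than in the spleen in 12 of 12 markers in both genotypes (25.1% of all genes in NFKBIE-ko and 15.8% in NFKBIE-wt), along with the type I members.

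In the cultures, the levels differed between the marker lists. T-cell markers were at 201 to 435 CPM in NFKBIE-wt and at 342.5 to 399 CPM in NFKBIE-ko cultures. Plasmacytoid dendritic cell markers were at 268 to 632 and 594 to 662 CPM. Tcf4 alone was at 205 to 613 CPM in the cultures and Ccr9 at 20.0 to 61.1 CPM, whereas Siglech, Cox6a2 and Klk1 were at 5.96 CPM or less. The sum thus rests mainly on Tcf4 and by itself does not show that such cells were present. Where NFKBIE-wt cultures are listed singly below, the last value is the library labelled NFKBIE-wt in vitro 3. Macrophage markers were at 64.9, 35.2 and 96.0 CPM in NFKBIE-wt and at 37.0 to 45.9 CPM in NFKBIE-ko cultures, with C1qa, C1qc, Cd14, Fcgr1 and Marco at 0 in all 3 NFKBIE-ko libraries. The CD8+ and NK markers were at 17.4, 1.94 and 22.9 CPM in NFKBIE-wt and at 2.69 to 3.77 CPM in NFKBIE-ko cultures, with Cd8a, Cd8b1, Gzma, Klrk1 and Eomes at 0 in the latter. The CD8+ and NK markers did not share 1 order among the NFKBIE-wt cultures. Gzmb, the gene of the cytotoxic protease granzyme B, was at 8.55, 0 and 2.85 CPM in NFKBIE-wt cultures 1 to 3 and at 0 to 0.074 CPM in NFKBIE-ko cultures. Gzma, Prf1 and Ncr1 were also highest in NFKBIE-wt in vitro 1. Cd8a, Cd8b1, Nkg7, Gzmk, Klrb1c, Klrk1, Eomes and Ccl5 were highest in the library labelled NFKBIE-wt in vitro 3. Markers of B cells were high in all 22 libraries, at 6777 CPM or more. Their sum was lower in NFKBIE-ko than in NFKBIE-wt without overlap, at 8099 CPM or less against 9441 or more in the spleen. In the PC it was at 9784 or less against 11480 or more, and in vitro at 8344 or less against 9301 or more. Ighm, at 4987 to 9374 CPM, made up most of it. Of 10 markers, 0 rose and 2 fell in the spleen (2.32% and 3.16% of all genes). In the PC, 5 rose and 3 fell (22.5% and 20.9%).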

How the data were processed

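RNA of 22 samples in 6 groups was sequenced from paired-end mRNA libraries. The authors ran Salmon 1.8 against GRCm39, and the file they deposited holds estimated counts (expected counts) per transcript without normalization. The submitters' processing notes also name CASAVA and DESeq2. The table listed 62492 transcripts, each above 0 in at least 5 samples. Values were rounded to whole counts, and the 62147 transcripts that matched GENCODE on GRCm39 were summed into 17023 genes. The remaining transcripts held 0.619% of the counts. Total counts lay between 24036763 and 26581304. There were no molecular identifiers, so floors of 3 counts cover counting error only.

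Genes were tested with edgeR 4.0.16 (filterByExpr at a minimum count of 10, TMM scaling, robust quasi-likelihood test), per compartment for genotypes and over all 22 samples for sites and for differences between compartments. Benjamini-Hochberg adjustment covered all genes tested, with a threshold of 0.05. CPM were counts divided by the total after TMM scaling and multiplied by 1000000, and deviations used log2(CPM + 0.5). The CPM of Nfkbie, the floors of 3 counts and the cut of 1 CPM over all genes used totals without TMM scaling. TPM were computed from counts and annotated transcript lengths. DESeq2 1.42.0, limma 3.58.1, R 4.3.3, Python 3.11.15 and matplotlib 3.10.9 were used, and the fits were tested on simulated data. Alternatives were other size factors, no filter on low counts, the highest transcript of each gene, a fit of all samples, a fold threshold, DESeq2, the replicate number as a block and each library left out.

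Groups came from the sample titles. The labels do not say whether spleen and PC libraries with the same number share a mouse. Counts of replicates varied beyond sampling noise in all 30 pairs (chi-square per degree of freedom of 6.85 to 200). Samples of opposite genotype with the same number did not deviate together (correlations of -0.305 to 0.063 in the spleen, -0.182 to 0.025 in the PC and -0.017 to 0.142 in vitro) and were treated as unpaired. The members, the pathway and marker lists and the tests were chosen with earlier results of these data known. Full values are given for up to 12 members with the smallest adjusted p in a genotype comparison and for the highest type I and interferon-gamma members, and further genes were named where a list or a comparison turned on them. Promoter windows came from a RefSeq table on GRCm38.p6.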

Additional observations from a re-analysis of the deposited data

Results flagged for a closer look

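In groups of 4 libraries, single libraries stood apart from the rest of their group by Dixon's criterion in 7 of 60 tests, where chance gives about 1 in 20. Groups of 3 libraries were not tested. Samhd1 was at 108.1 CPM in the library labelled NFKBIE-wt spleen 4, against 154 to 159 CPM in the other NFKBIE-wt spleens, and Isg15 was at 10.39 CPM in it, against 3.26 to 4.36 CPM. Parp14 (75.87 CPM, others 44.8 to 48.6 CPM) and Dtx3l (70.86 CPM, others 50.7 to 54.0 CPM) were high in NFKBIE-ko spleen 2. Usp18 was at 1.57 CPM in NFKBIE-wt spleen 1, a gap that is large only beside the narrow range of 1.38 to 1.39 CPM in the others. Gbp2 was at 309.6 CPM in NFKBIE-ko PC 2, against 85.2 to 117 CPM, and the summed interferon-gamma members were at 1013 CPM in NFKBIE-ko spleen 3, against 765 to 805 CPM.

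Effects of NFKBIE-ko that differed between compartments by edgeR's test of the difference (log2 scale) were those of Usp18 for the spleen minus the PC (2.223) and minus the cultures (2.606), of Oas2 for the spleen minus the cultures (5.106) and the PC minus the cultures (3.419), and of Samhd1 for the PC minus the cultures (1.057). For Oas2, all NFKBIE-ko spleens were above all NFKBIE-wt spleens (log2 fold change 1.903) and all NFKBIE-ko cultures were below all NFKBIE-wt cultures, a reversal between sites that was not tested in that form.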

How the results depend on the processing

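The 33 calls of single members kept their direction under the alternatives tried, and their side of the threshold with DESeq2, with its size factors and without a filter on low counts. The number of members called moved more. The spleen count of 8 higher became 5 with the highest transcript per gene and 16 with DESeq2, which called 4.35% of all genes higher and 5.33% lower. With all 22 samples in the fit, the PC counts of 19 higher and 1 lower became 11 and 0, and 1 member was lower in vitro. With a log2 fold change above 1 required as well, they became 7 and 0, the PC over the cultures 16 (NFKBIE-ko) and 9 with 0 lower (NFKBIE-wt), and the PC over the spleen 11 (NFKBIE-ko). For PC against cultures in NFKBIE-wt, the highest transcript gave 0 lower. Without both NFKBIE-wt libraries with odd markers, NFKBIE-wt spleens against cultures gave 3 higher and 14 lower, PC against cultures 5 lower, and the differences between compartments 2, 5 and 7 (spleen minus PC, spleen minus cultures, PC minus cultures). DESeq2 gave 3, 11 and 11 for these differences, and the highest transcript gave 1 for the spleen minus the cultures.

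With the replicate block, 2 members rose in the spleen, where 0.376% of all genes were higher and 0.36% lower. In the PC 13 rose and 1 fell (19.3% and 17% of all genes), and 0 passed in vitro (0% and 0%). The differences against the cultures had 0 calls for the spleen and 1 for the PC. The numbers do not pair the samples. The block medians in vitro were -0.03 (type I) and -0.10 (interferon-gamma).

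With each library left out, the spleen count ranged from 3 (without NFKBIE-ko 1) to 14 (without NFKBIE-wt 4), the PC count from 14 to 21, and the lower count in vitro from 0 to 1 (without NFKBIE-wt 2). Spleens against cultures had 0 to 1 lower in NFKBIE-ko and 0 to 7 lower in NFKBIE-wt, and NFKBIE-wt PC against cultures had 10 to 23 higher and 0 to 5 lower. Differences against the cultures had 0 to 11 calls (11 without NFKBIE-wt in vitro 2). In the PC, the median of the type I members lay between 0.242 and 0.864. In vitro it lay between -0.948 and 0.47, and that of the interferon-gamma members between -0.58 and 0.381. The cause of these changes was not tested, other than that fewer samples enter. Members at 0 to 2 counts, such as Oas1a and Oas2 in NFKBIE-ko cultures, allow lower bounds only.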
